A study of Mus musculus with 90 samples.

Results

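Iron handling genes are described here as a set of 10 genes out of the 20414 in the expression table, found by Entrez Gene identifier. The rule for the set uses no measured value, but the members were chosen with earlier results of these data known. The set holds the 2 mouse hepcidin genes Hamp and Hamp2, the iron exporter ferroportin (Slc40a1), the ferrous iron importer DMT1 (Slc11a2) and the duodenal ferric reductase (Cybrd1). It further holds transferrin (Trf), the transferrin receptor (Tfrc), the heavy and light ferritin chains (Fth1 and Ftl1) and heme oxygenase 1 (Hmox1). All 10 were found in the table, and each was followed through the 90 libraries of 15 tissues. RNA had been sequenced from wildtype female C57BL/6 mice, 10 weeks old by the labels (the study's methods give a younger age), which were staged by vaginal smear, with serum hormones as an aid, as being in estrus or in diestrus. Each tissue has 3 libraries from either phase, and no group carries a transgene or received an agent. The tissues are those of the gut and its glands (liver, duodenum, stomach), spleen and kidney, the circulation (heart, aorta, vein), fat (brown and white adipose tissue, BAT and WAT), skeletal muscle, brain (hypothalamus and cerebrum) and the reproductive tract (uterus and ovary). By the study's text, 3 mice of either phase gave all tissues, so libraries of different tissues share animals, and the labels do not say which library came from which mouse.

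Body iron is guarded mainly at its entry and release, since mammals have no regulated route to excrete it. Enterocytes of the duodenum reduce dietary iron, import it through DMT1 and pass it to the blood through ferroportin, while macrophages of spleen and liver return iron from the heme of old red cells. Hepcidin, a peptide hormone made by hepatocytes, blocks and degrades ferroportin, transferrin carries iron in plasma to cells with transferrin receptor, and ferritin shells of heavy and light chains store it. Inside cells, iron regulatory proteins bind RNA stem-loops and thereby tie the translation of ferritin and ferroportin, and the stability of the transferrin receptor message, to iron. Such control acts partly on translation and on protein, which the values here do not measure.

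The sequences that set the members apart come first, because the 2 hepcidin genes are close copies with unequal tissue patterns. The part of each coding sequence that encodes the last 25 codons, which hold the mature peptide, is given from GENCODE transcripts (GRCm38, minus strand, chr7:30942480-30942554 and chr7:30922511-30922585), with capitals at the 14 bases that differ.
Hamp: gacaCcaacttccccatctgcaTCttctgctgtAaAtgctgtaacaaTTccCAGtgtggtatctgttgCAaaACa
Hamp2: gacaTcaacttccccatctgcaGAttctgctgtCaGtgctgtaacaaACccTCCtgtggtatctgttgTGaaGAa
The coding sequences of 249 bases were 93.6% identical and differed at 16 positions, so 14 of the 16 fall in this stretch. The transcripts of 410 and 420 bases were 92.4% identical, and 60 of the 361 windows of 50 bases in Hamp also occur in Hamp2. Reads from such windows cannot be assigned to one gene, and how RSEM split them is not shown in the table, so the values of both genes carry that uncertainty.

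The promoters of the pair are shown because the data place both genes highest in liver but part them in other tissues. The 250 bases before each start (RefSeq, GRCm38.p6, minus strand, chr7:30944030-30944279 for Hamp and chr7:30924182-30924431 for Hamp2) are printed with capitals at matches to GGCGCC, the letters of the BMP-responsive element, and to TTCNNNGAA, the letters of a STAT site, searched on both strands.
Hamp: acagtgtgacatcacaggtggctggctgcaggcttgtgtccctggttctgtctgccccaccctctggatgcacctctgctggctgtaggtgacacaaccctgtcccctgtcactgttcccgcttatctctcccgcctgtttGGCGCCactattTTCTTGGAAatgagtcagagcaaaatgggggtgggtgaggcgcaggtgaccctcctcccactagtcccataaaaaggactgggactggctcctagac
Hamp2: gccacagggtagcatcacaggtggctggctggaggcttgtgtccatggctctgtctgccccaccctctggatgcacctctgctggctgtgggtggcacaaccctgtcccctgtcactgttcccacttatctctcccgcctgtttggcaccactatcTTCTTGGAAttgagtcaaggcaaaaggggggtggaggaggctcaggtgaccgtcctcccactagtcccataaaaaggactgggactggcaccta
The 2 windows were 89.7% identical. Hamp holds GGCGCC with its first base 109 bases before the start, where the aligned Hamp2 window differs by G145A (positions counted from 1 at the first base printed for Hamp), and Hamp2 holds no match. The STAT letters start 97 bases before the start in Hamp and 94 in Hamp2. Of 32841 promoter windows of this length, 9.59% hold the first motif and 7.02% the second. Promoters were listed for 6 of the 10 members, and GGCGCC also occurs in those of Cybrd1 and of Tfrc. A match describes letters only.

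A further set shows which members hold matches to a fixed pattern of the stem-loop that iron regulatory proteins bind. GENCODE transcripts (GRCm38) were searched for a C, 5 paired bases and the loop CAGTG followed by A, C or T. The second stem of 5 bases below it needed at least 4 pairs, and G with T counted as a pair. In 4 members there were matches, with the loop in capitals below. Of 21877 protein-coding genes searched, 24 (0.11%) held one.
Fth1, before the coding sequence, chr19:9982733-9982759, plus strand: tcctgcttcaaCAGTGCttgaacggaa
Ftl1, before the coding sequence, chr7:45459780-45459806, minus strand: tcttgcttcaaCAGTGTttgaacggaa
Slc40a1, before the coding sequence, chr1:45925466-45925492, minus strand: aacttcagctaCAGTGTtagctaagtt
Tfrc, after the coding sequence, chr16:32631220-32631246, plus strand: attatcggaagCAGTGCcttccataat
Tfrc, after the coding sequence, chr16:32631599-32631625, plus strand: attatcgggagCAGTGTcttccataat
Tfrc, after the coding sequence, chr16:32631664-32631690, plus strand: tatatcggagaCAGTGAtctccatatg
Tfrc, after the coding sequence, chr16:32631711-32631737, plus strand: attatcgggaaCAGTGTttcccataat
Matches thus stood once ahead of the coding sequence of both ferritin chains and of ferroportin, and 4 times behind that of the transferrin receptor. Elements that depart from the pattern are missed by such a search. Members without a match may therefore still hold one, and those with matches may hold more.

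The unit is FPKM, fragments scaled to transcript length and to the mapped fragments of the library, so that genes of unequal length can be compared. Read totals were not used here. Some libraries stand apart. BAT estrus replicate 3 lists 12048 genes at 0, against 2404 to 4820 in the other 89 libraries. In duodenum estrus replicate 1, the 5 fixed markers of gastric epithelium summed to 30072 FPKM, against 0.41 to 20.9 in the other 5 duodenum libraries and 20578 to 34230 in stomach, of which Tff1 made up 29618 while the acid pump genes Atp4a and Atp4b were at 0.13 and 0.17. That library also had the most smooth muscle marker (1089 FPKM against 102 to 316), B cell marker (372 against 17.5 to 73.5) and pancreatic acinar marker (55.1 against 4.24 to 7.73) of the duodenum set. Spleen estrus replicate 2 held 3254 FPKM of the 6 pancreatic acinar markers (3.80 to 14.4 in the other spleens). Aorta estrus replicate 1 had 10890 FPKM of the 3 smooth muscle markers against 1019 to 1660, 56.6 of the 3 cardiomyocyte markers against 417 to 884, and 221 of the 3 ovary markers against 2.73 to 5.22. WAT estrus replicate 1 had 1224 FPKM of the smooth muscle markers against 50.8 to 125. The part of these differences in the members' values was not tested. Values without the first 4 of these libraries are given for some results only. In bulk tissue, fewer cells of a type and less RNA per cell cannot be told apart.

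Tissue was the axis along which the members varied. All libraries were fitted together with limma on log2(FPKM + 1) over 15226 genes whose mean reached 1 FPKM, and 709 of the 1050 pairs of tissues and members (67.5%) differed at an adjusted p of at most 0.05, against 69.8% over all genes tested. Of the 140 pairs of neighbours in the members' own orders of tissues 25 (17.9%) differed, against 18.5% for all genes in theirs. The set as a whole was therefore close to the background in this count. Single members lay far apart in it, from 95 pairs of tissues for Ftl1 and 92 for Trf to 53 for Tfrc and 50 for Hamp. The map of mean levels shows the 10 patterns side by side.

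**Figure D1:**
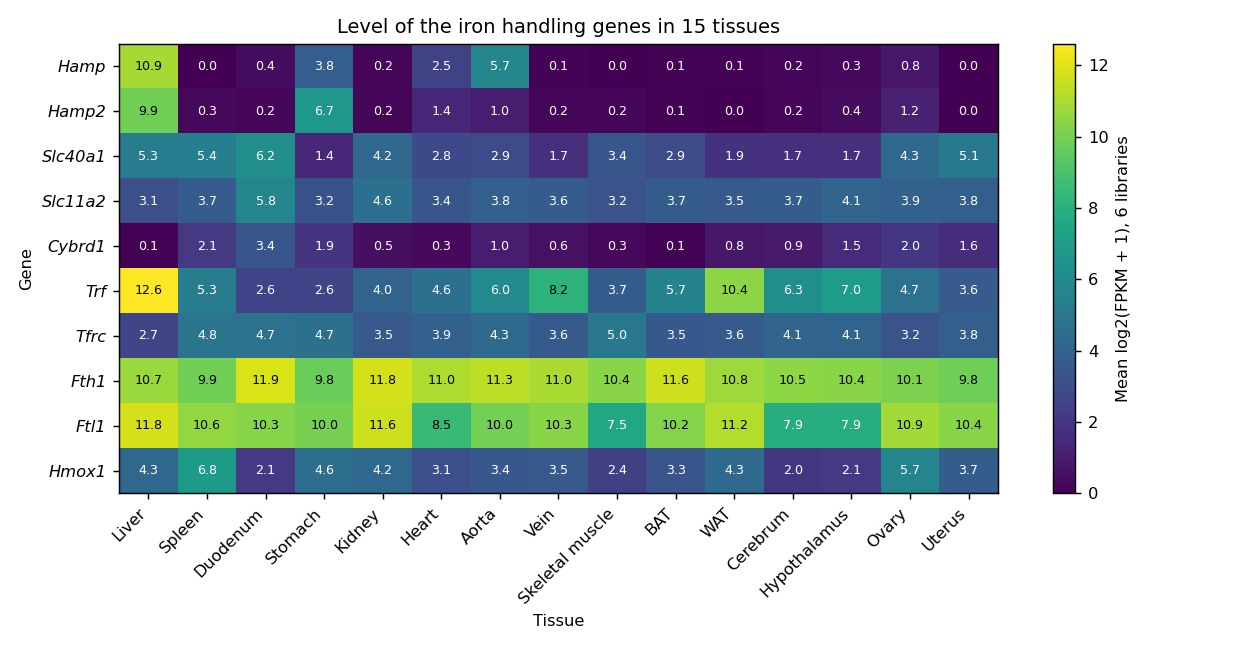
Mean log2(FPKM + 1) over 6 libraries of each of the 10 genes (rows) in each of the 15 tissues (columns), with the value printed in each cell. Fth1 and Ftl1 are high in every tissue, Trf, Hamp and Hamp2 peak in liver, Hmox1 in spleen, and Slc40a1, Slc11a2 and Cybrd1 in duodenum.

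Hamp, which encodes hepcidin, was highest in liver. Its 3 estrus libraries stood at 2557, 2674 and 692 FPKM and its 3 diestrus libraries at 4055, 2194 and 1150, a mean of 2220 ± 1197 (SD, n = 6). Liver was followed by aorta, stomach and heart, and each of these 4 tissues exceeded the next (limma, adjusted p = 1.31e-18 for liver over aorta, 1.59e-05 for aorta over stomach, 0.00289 for stomach over heart, and 0.000177 for heart over ovary). Below them the mean was under 1 FPKM in 11 tissues, and 37 of the 90 libraries were listed at 0.

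Aorta was the second tissue for Hamp, with 4.66, 144 and 148 FPKM in estrus, against 61.7, 90.9 and 32.1 in diestrus. The 6 libraries ranked in the same order by Hamp as by the sum of the cardiomyocyte markers Myh6, Actn2 and Nppa, which was 56.6, 799 and 884 FPKM in estrus, against 627, 725 and 417 in diestrus. All 3 of these markers had a mean over 1 FPKM in aorta. Estrus replicate 1 was also lowest for white adipocyte markers (125 FPKM against 1290 to 1632) and brown adipocyte markers (309 against 2485 to 4760). Albumin (Alb), the main secreted protein of hepatocytes, was at 0 to 0.90 FPKM in aorta, and Fgb at 0 to 0.05. The hepatocyte list as a whole, 4 of whose 7 markers had a mean of at least 1 FPKM, summed to 67.7 to 885 FPKM, nearly all of it Cyp2e1 (60.4 to 876 FPKM).

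Heart held less Hamp than aorta, at 2.58, 5.98 and 7.04 FPKM in estrus, against 4.27, 4.42 and 4.09 in diestrus, although its cardiomyocyte markers summed to 5200 to 9059. The highest of these Hamp values belonged to heart estrus replicate 3, which also had 974 FPKM of the atrial myosin light chain Myl7 against 0.16 to 3.83 in the other 5 heart libraries. Myl7 was looked up after the values were seen. It stood at 61.4 FPKM in aorta estrus replicate 1 and at 607 to 1116 in the other aortas. Whether atrial tissue had a part in the Hamp values was not tested.

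Hamp2, the second hepcidin gene of the mouse, shared the peak in liver, with 1053, 1699 and 303 FPKM in estrus, against 922, 1389 and 1097 in diestrus (mean 1077 ± 471, SD, n = 6). Liver estrus replicate 3 was the lowest for both genes. Stomach came second at 102, 171 and 85.1 FPKM in estrus, against 90.8, 92.8 and 98.3 in diestrus, and its 6 values lay above those of every other tissue but liver. Both steps passed the test (liver over stomach, log2 difference 3.19 ± 0.26 (SE), adjusted p = 8.54e-18; stomach over heart, 5.29 ± 0.26, adjusted p = 2.58e-28). Aorta, second for Hamp, had 0.22 to 3.12 FPKM of Hamp2.

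Of the summed FPKM of both genes, Hamp made up 51.2% to 81.5% in the 6 liver libraries and 4.56% to 26.3% in the 6 stomach libraries. These ranges do not overlap, so the balance of the 2 copies was reversed between the organs. In stomach Hamp stood at 4.89, 20.7 and 10.5 FPKM in estrus, against 5.48, 18.3 and 35.2 in diestrus. Alb was at 0.94 to 9.44 FPKM and Fgb at 0 to 0.63 in the same libraries, against a median of 47427 FPKM of Alb in liver. The hepatocyte list summed to 794 to 1709 FPKM in stomach, where 3 of its 7 markers had a mean of at least 1 FPKM. In spleen, Hamp2 was listed at 0 in 5 libraries and at 1.89 FPKM in estrus replicate 2, the library with pancreatic markers.

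**Figure D2:**
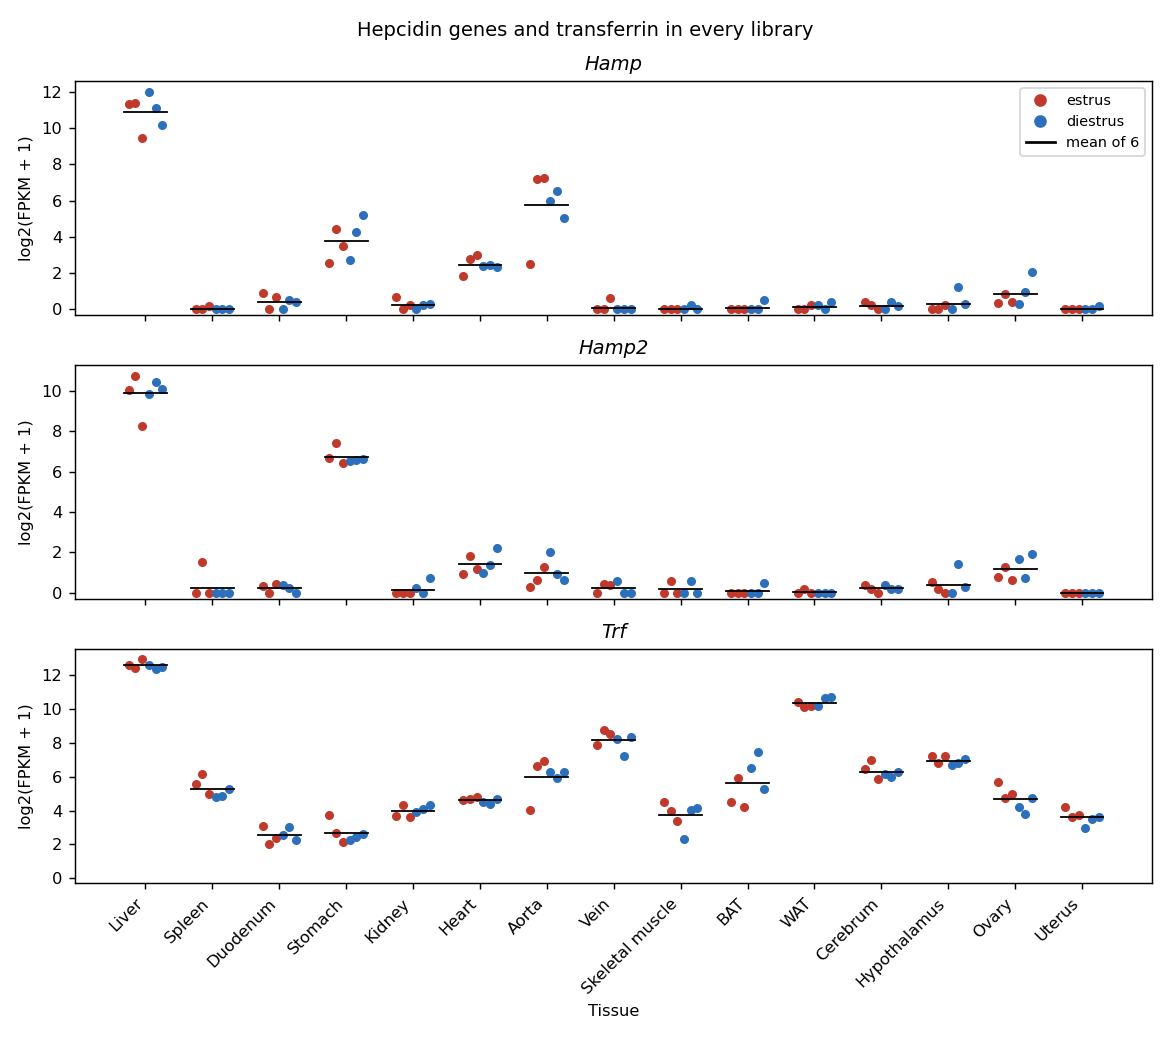
log2(FPKM + 1) of Hamp, Hamp2 and Trf (3 panels) in every library of the 15 tissues, red for estrus, blue for diestrus, with a black bar at the mean of 6. Hamp is second highest in aorta, where estrus replicate 1 lies far below the others, Hamp2 is second highest in stomach, and Trf is second highest in WAT.

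Ferroportin (Slc40a1), the one known cellular iron exporter and the receptor of hepcidin, was measured above 1 FPKM in all 90 libraries. Duodenum had the highest mean log2 level, followed by spleen, liver and uterus, and no neighbours among these 4 differed beyond their spread (limma, adjusted p = 0.0828 for duodenum over spleen). Stomach was lowest at 1.11 to 2.00 FPKM. The level in spleen was 58.4, 75.7 and 24.2 FPKM in estrus, against 33.8, 30.01 and 54.8 in diestrus, and liver was the steadiest of the 4 at 31.1 to 49.5 FPKM.

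In uterus 1 library stood apart. Estrus replicate 1 held 281 FPKM of Slc40a1, and the other 5 uterus libraries 6.56 to 40.6. The same library had the highest sum of the 6 macrophage markers, 471 FPKM against 125 to 273. In WAT, estrus replicate 1 again had the highest Slc40a1, 9.33 FPKM against 1.14 to 3.09, together with 775 FPKM of macrophage markers against 224 to 391 and the high smooth muscle sum given above. In uterus estrus replicate 1 the smooth muscle sum was likewise the highest, at 2217 FPKM against 470 to 1877. The part of these cell types in either value was not tested.

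DMT1 (Slc11a2), which carries ferrous iron across the apical membrane of enterocytes and out of endosomes, peaked in duodenum as well. It stood at 63.7, 253 and 37.2 FPKM in estrus, against 26.0, 63.9 and 24.5 in diestrus there, above every library of every other tissue, though only just above the highest kidney value. Kidney was second at 22.3 to 24.3 FPKM, above hypothalamus (adjusted p = 0.0084), and duodenum exceeded kidney by 1.18 ± 0.19 log2 units (SE, adjusted p = 1.51e-07). From hypothalamus downward no neighbours differed, and liver closed the order at 6.29 to 8.03 FPKM. Outside duodenum the tissue means thus spanned only 7.34 to 23.3 FPKM.

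Cybrd1, a ferric reductase of the enterocyte brush border, had the lowest peak of the 10 members, a mean of 22.8 FPKM. Its mean reached 1 FPKM in 7 of 15 tissues. In duodenum it was measured at 81.8, 32.9 and 3.98 FPKM in estrus, against 1.65, 15.8 and 0.83 in diestrus, a 98.5-fold range over 6 libraries. Spleen came next at 2.64 to 3.75 FPKM, below duodenum by 1.24 ± 0.33 log2 units (SE, adjusted p = 0.00057), and liver and BAT were lowest at 0 to 0.12 FPKM.

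The spread between duodenum libraries was a feature of the absorptive members as a group. Cybrd1 had a within-phase SD of 1.90 on the log2 scale, Slc40a1 of 1.68 and Slc11a2 of 1.13, against a median of 0.31 over the 12410 genes tested in duodenum, and 99.3%, 99.1% and 97.5% of those genes had a lower SD. Slc40a1 went from 336 FPKM in estrus replicate 2 and 179 in diestrus replicate 2 down to 15.2 in diestrus replicate 3. Slc11a2, Cybrd1 and Fth1 likewise were higher in estrus replicate 2 and diestrus replicate 2 than in estrus replicate 3, diestrus replicate 1 and diestrus replicate 3. Fth1 was at 6922 and 5964 FPKM in the former and at 2387 to 3257 in the latter. Tfrc ran the other way at its extremes, with 12.1 FPKM in estrus replicate 2 and 46.5 in diestrus replicate 3.

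These 5 libraries did not order alike by their enterocyte markers. The sum of Fabp2, Vil1, Apoa4, Alpi and Sis was 14785 FPKM in estrus replicate 2 and 7288 in diestrus replicate 2, but 13754 in estrus replicate 3, 5619 in diestrus replicate 1 and 7868 in diestrus replicate 3. Estrus replicate 1, the library rich in Tff1, had the lowest sum at 3583 and yet the highest Cybrd1. Its 89.5 FPKM of Slc40a1 and 63.7 of Slc11a2 were within the range of the others, and its Slc40a1 was far above stomach. The part of either marker list in this spread was not tested.

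**Figure D3:**
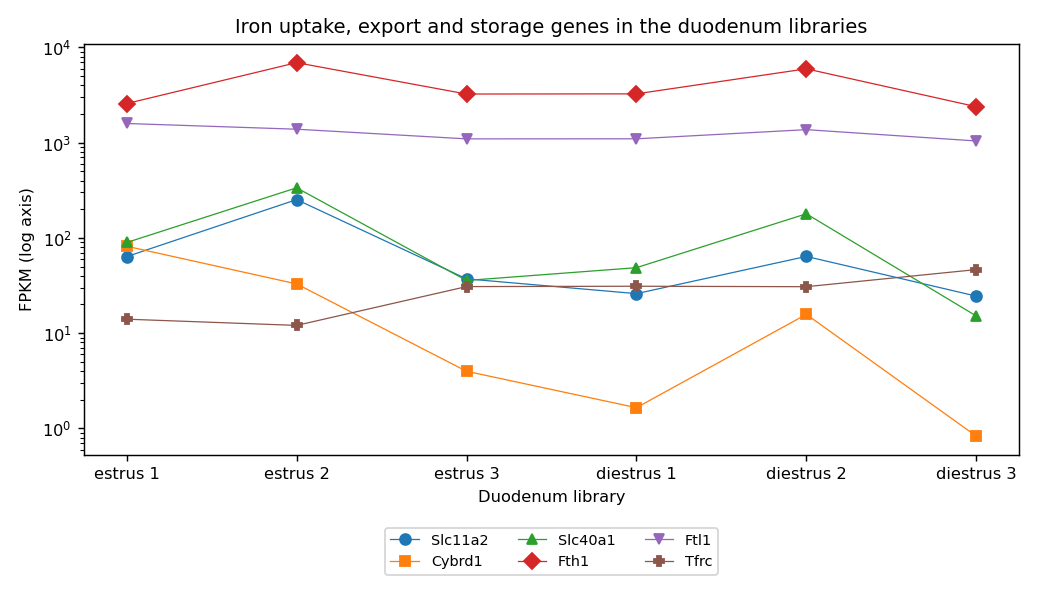
FPKM on a log axis of 6 members in the 6 duodenum libraries, where each colour and marker is a gene and the thin lines only join its points. Slc40a1, Slc11a2, Cybrd1 and Fth1 are high in estrus replicate 2 and diestrus replicate 2 and low in diestrus replicate 3, where Tfrc is highest.

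Transferrin (Trf), the iron carrier of plasma, had the widest range of tissue means among members measured in all libraries. Liver, its main source, held 6379, 5512 and 8221 FPKM in estrus, against 6385, 5371 and 5779 in diestrus, and Trf ranked 7 among the 20414 genes there. WAT was second at 1113 to 1704 FPKM, vein next at 148 to 438 and hypothalamus after it at 101 to 151. Each of these steps passed the test (liver over WAT, log2 difference 2.21 ± 0.32 (SE), adjusted p = 7.5e-09; WAT over vein, 2.22 ± 0.32, adjusted p = 2.27e-08; vein over hypothalamus, 1.21 ± 0.32, adjusted p = 0.000673). Duodenum and stomach were lowest, with means of 5.09 and 5.76 FPKM.

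Trf in WAT was not matched by BAT, which held 21.9, 60.9 and 17.3 FPKM in estrus, against 92.2, 176 and 37.6 in diestrus, 4.73 log2 units below WAT (adjusted p = 3.18e-20). The 7 hepatocyte markers summed to 1572 to 3948 FPKM in WAT, where 4 had a mean of at least 1 FPKM, nearly all of it Cyp2e1 (1550 to 3922), while Alb had a median of 18.3 FPKM and Fgb was at 0 to 0.22. In vein, the library with the most white adipocyte marker (estrus replicate 2, 1963 FPKM summed over 3 genes) had the most Trf, and the library with the least (diestrus replicate 2, 744) had the least. In cerebrum, Trf was highest in estrus replicate 2 (125 FPKM) and lowest in estrus replicate 3 (57.4), as was the sum of the 4 oligodendrocyte markers (2302 and 1097 FPKM). The part of these cell types was not tested.

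The transferrin receptor (Tfrc), by which cells take up iron-loaded transferrin, had tissue means from 5.64 FPKM in liver to 31.96 in skeletal muscle, and none of its 14 neighbouring pairs of tissues differed beyond the spread of the libraries. Across wider gaps it did, since liver lay below kidney by 0.85 log2 units (adjusted p = 0.00937). Single libraries stood out, above all aorta diestrus replicate 1 at 107 FPKM, where the other 5 aortas were at 3.60 to 22.9. Over the 15 tissues the means of Tfrc and Trf had a Pearson r of -0.64, the most negative of the 45 pairs of members, given as a description over tissues that share libraries.

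Ferritin was the most abundant part of the set. Over the 90 libraries Fth1 ranked 13 and Ftl1 24 among 20414 genes by mean FPKM. The heavy chain (Fth1), which carries the ferroxidase, ranged only 4.65-fold between tissue means, from 873 ± 120 FPKM in stomach to 4058 ± 1905 in duodenum (SD, n = 6). The light chain (Ftl1), which aids the laying down of the iron core, ranged 19.3-fold, from 185 ± 26.1 in skeletal muscle to 3564 ± 276 in liver. Neighbouring tissues differed in 7 of 14 pairs for Ftl1, the most of any member, and in 0 of 14 for Fth1.

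The balance of the chains divided the tissues. The ratio of Fth1 to Ftl1, taken as log2 of (FPKM + 1), was 2.86 ± 0.13 in skeletal muscle, 2.61 ± 0.23 in cerebrum, 2.53 ± 0.08 in heart and 2.499 ± 0.14 in hypothalamus (SD, n = 6). At the other end were liver at -1.10 ± 0.11, ovary at -0.73 ± 0.19 and spleen at -0.65 ± 0.07. On a linear scale the heavy chain was thus 7.25 times the light chain in skeletal muscle and 0.467 times in liver. The 6 heart libraries (2.42 to 2.63) lay apart from the 6 liver libraries (-1.27 to -1.02), a difference of 3.63 log2 units with an exact two-sided permutation p of 0.00216, the smallest that 6 against 6 allows. Ftl1 accounted for most of it, since it was 3.29 log2 units lower in heart than in liver, while Fth1 was 0.34 higher.

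Duodenum and uterus had the least steady ratios. In duodenum it went from 0.69 in the Tff1-rich estrus replicate 1 to 2.32 in estrus replicate 2, and in uterus from -1.15 to 0.10. The high uterus value came from estrus replicate 3, with 1825 FPKM of Fth1 against 648 to 968 in the others. That library also had 724 FPKM of the 2 squamous epithelium markers, against 0.15 to 31.4, and 110 FPKM of the 2 neutrophil markers against 0.12 to 2.57. It was lowest for the 3 smooth muscle markers (470 FPKM against 620 to 2217). The part of these cell types in the value was not tested. Between phases within a tissue the lowest exact two-sided permutation p of the ratio was 0.3, and 3 against 3 libraries cannot go below 0.1. Reads of ferritin can also match processed copies elsewhere in the genome, and how they were shared out is not shown in the table.

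**Figure D4:**
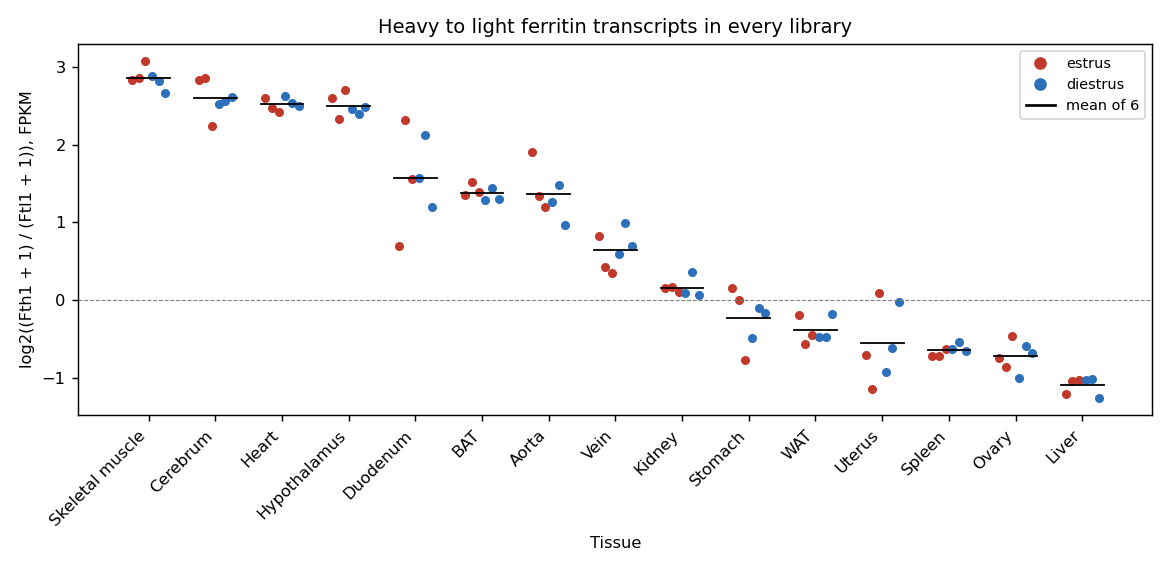
log2 of (Fth1 + 1) over (Ftl1 + 1) in FPKM for every library, with tissues ordered by mean, red for estrus, blue for diestrus and a black bar at the mean of 6. Skeletal muscle, cerebrum, heart and hypothalamus lie between 2.24 and 3.08, and liver between -1.27 and -1.02.

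Heme oxygenase 1 (Hmox1), which opens heme and frees its iron, was led by spleen at 178, 189 and 64.6 FPKM in estrus, against 84.3, 98.0 and 122 in diestrus. Ovary was second at 35.5 to 80.2 FPKM, and both steps passed the test (spleen over ovary, 1.10 ± 0.26 log2 units (SE), adjusted p = 0.00016; ovary over stomach, 1.198 ± 0.26, adjusted p = 3.81e-05). Cerebrum, duodenum and hypothalamus were lowest, with means of 3.09, 3.72 and 3.43 FPKM.

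In spleen Hmox1 and Slc40a1 shared their high and low libraries. The red pulp macrophage markers (6 of 6 measured at a mean over 1 FPKM, among them the transcription factor Spic) summed to 363 and 430 FPKM in estrus replicates 1 and 2 and to 374 in diestrus replicate 3, and to 229 to 250 in the other 3. The former 3 libraries had 122 to 189 FPKM of Hmox1 and 54.8 to 75.7 of Slc40a1, the latter 64.6 to 98.0 and 24.2 to 33.8, so the ranges did not overlap. In stomach, Hmox1 was at 48.0 and 68.4 FPKM in estrus replicates 1 and 3 and at 9.82 to 17.4 in the others. These 2 libraries also had 878 and 1574 FPKM of the squamous epithelium markers, against 0.22 to 378. They were highest as well for smooth muscle markers (3051 and 1024 FPKM against 140 to 759), neutrophil markers (32.6 and 12.3 against 0.51 to 8.26) and brown adipocyte markers (9.83 and 14.2 against 0.40 to 2.67). The part of these cell types was not tested.

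Liver, spleen and duodenum were each set against the mean of the other 14 tissues, because they secrete hepcidin, recycle iron and absorb it. A member was called where the log2 difference reached 1 in size and the adjusted p was 0.05 or lower. In liver 5 members were higher, namely Hamp (9.87 ± 0.29, SE), Hamp2 (9.04 ± 0.19), Trf (7.27 ± 0.23), Slc40a1 (2.02 ± 0.29) and Ftl1 (2.00 ± 0.08), where 8.12% of all genes tested were called higher. Lower were 2 members, Tfrc by 1.40 ± 0.22 and Cybrd1 by 1.12 ± 0.24, where 36% of all genes were called lower. The median of all genes tested was -0.78 in liver. With libraries scaled to a common median ratio it was -0.19, 6 members were higher and 1 was lower, Hmox1 joined at 1.49, Tfrc missed the limit at -0.63, and Fth1 changed from -0.03 to 0.87.

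In spleen 3 members were called higher, Hmox1 (3.36 ± 0.19), Slc40a1 (2.203 ± 0.29) and Cybrd1 (1.05 ± 0.24), beside 22.1% of all genes. Hamp (-1.77 ± 0.29) and Hamp2 (-1.30 ± 0.19) were called lower, beside 17.6% of all genes. Tfrc was just under the limit at 0.94 ± 0.22. Without the libraries of replicate number 2, 4 members were called, since Cybrd1 was at 0.998.

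In duodenum 4 members were higher, Slc40a1 (3.02 ± 0.29), Cybrd1 (2.38 ± 0.24), Slc11a2 (2.11 ± 0.14) and Fth1 (1.22 ± 0.11), beside 14.2% of all genes. Trf (-3.49 ± 0.23), Hmox1 (-1.73 ± 0.19), Hamp (-1.36 ± 0.29) and Hamp2 (-1.32 ± 0.19) were lower, beside 17.2% of all genes. Without the 4 libraries that stand apart the same 8 members were called, with Cybrd1 at 1.92 and Slc40a1 at 3.06. Without the libraries of replicate number 2, Fth1 was at 0.82 and was not called, Slc40a1 was at 2.15, Cybrd1 at 1.71 and Slc11a2 at 1.504.

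Other genes of iron handling were read from a list of 69 that holds hepcidin control, iron sensing, further transport, heme, iron-sulfur clusters and transcription factors, of which 65 were tested. In liver 17 were called higher, beside 8.12% of all genes, and 11 lower, beside 36%, with a median log2 difference of -0.13 beside -0.78 for all genes. The largest differences there were those of hemopexin (Hpx, a heme scavenger of plasma, 2586 FPKM, 10.72 ± 0.13), haptoglobin (Hp, which binds free hemoglobin, 6.77 ± 0.32), Tmprss6 (the protease that restrains hepcidin, 6.49 ± 0.09), Tfr2 (a sensor of loaded transferrin, 5.96 ± 0.15) and ceruloplasmin (Cp, a ferroxidase, 4.55 ± 0.14). Of the 21 heme genes in liver 9 were called higher and 1 lower.

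In spleen 10 of the 65 were called higher, beside 22.1% of all genes, and 16 lower, beside 17.6%, with a median of 0.15 beside 0.06 for all genes. Spic, which directs the fate of red pulp macrophages, led with 5.33 ± 0.12, and the erythroid heme synthesis enzyme Alas2 (5.03 ± 0.33) and the mitochondrial iron importer mitoferrin 1 (Slc25a37, 3.08 ± 0.12) came next. Lactoferrin (Ltf) was higher by 2.41 ± 0.49 although uterus, at a mean of 484 FPKM, far exceeded the 15.5 of spleen. Neo1, a partner of hemojuvelin, was lower (-2.29 ± 0.10). In duodenum 11 were higher, beside 14.2% of all genes, and 14 lower, beside 17.2%, with a median of -0.26 beside -0.22. The higher ones were led by the folate transporter Slc46a1 (4.65 ± 0.20), which also moves heme, and by hephaestin (Heph, the ferroxidase that works with ferroportin, 3.95 ± 0.14). Hp (-3.73 ± 0.32), the metalloreductase Steap4 (-2.84 ± 0.23) and the heme transporter Slc48a1 (-2.37 ± 0.09) were lower.

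Estrus and diestrus were compared within each tissue, over 3 libraries of either phase. Of 150 pairs of member and tissue, 121 passed the filter of a mean of 1 FPKM over the 6 libraries. Hamp passed in 4 tissues, Hamp2 in 5, Cybrd1 in 7 and the other 7 members in all 15. By limma within the tissue, 0 of the 121 were called by the same limits, where 0.00108% of all gene and tissue pairs were called. An unadjusted p under 0.05 was reached by 13 of the 121 (10.7%), against 7.84% over all genes. The 3 values of one phase lay apart from the 3 of the other in 15 of the 121 (12.4%), against 15% over all genes. The share with a low p was thus somewhat above the background and the share lying apart somewhat below it. A p that misses the threshold does not show that the phases were alike. Each p sets the phase difference against the spread between 3 libraries per phase, for which limma also draws on the other genes. Of the iron list, 0 of 856 gene and tissue pairs were called, and 86 had an unadjusted p under 0.05.

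The pairs with an unadjusted p under 0.05 are given next, none of which passed the adjustment. Slc40a1 was at 8.90, 7.49 and 12.5 FPKM in estrus libraries and at 4.90, 4.49 and 3.57 in diestrus in BAT, all estrus values above all diestrus values (log2 fold change 0.98 ± 0.25 (SE), limma adjusted p = 0.229). Without BAT estrus replicate 3, the library with the most genes at 0, it was 0.79 with an adjusted p of 0.0511. In heart the phases of Slc40a1 also lay apart, at 6.18 to 7.81 FPKM in estrus and 4.46 to 5.21 in diestrus (0.39 ± 0.11, adjusted p = 0.792). In skeletal muscle its ranges overlapped, at 7.83 to 9.56 and 9.48 to 11.6 FPKM (-0.29 ± 0.10, adjusted p = 0.18). The estimates thus differed in sign between these tissues, which were picked by their unadjusted p. The limma test of whether the phase difference of Slc40a1 varied among all tissues did not pass (adjusted p = 0.509). A difference in direction between tissues was therefore not shown.

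Tfrc had the larger values. In WAT it was at 5.97, 6.80 and 9.84 FPKM in estrus, against 8.81, 16.5 and 26.3 in diestrus (-0.997 ± 0.36, adjusted p = 0.791). In duodenum it was at 14.02, 12.1 and 30.8 in estrus and 31.1, 30.7 and 46.5 in diestrus (-0.98 ± 0.36, adjusted p = 0.368). The ranges overlapped in both tissues, and in duodenum the difference was -1.38 to -0.74 with any 1 library left out. Liver Tfrc stood at 2.33, 5.74 and 4.47 in estrus and 5.59, 8.55 and 7.13 in diestrus (-0.69 ± 0.27, adjusted p = 0.811). Trf in ovary was at 49.8, 25.6 and 30.6 in estrus and 17.2, 13.1 and 25.9 in diestrus (0.88 ± 0.31, adjusted p = 0.824), again with overlapping ranges.

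For both ferritin chains the 3 estrus values of BAT lay below the 3 diestrus values, in a tissue where 30.1% of all genes had their phases apart. Fth1 was at 2800, 2615 and 3143 FPKM in estrus, against 3661, 3703 and 3257 in diestrus (-0.31 ± 0.10, adjusted p = 0.305), and Ftl1 at 1093, 914 and 1199 against 1495, 1357 and 1321 (-0.39 ± 0.12, adjusted p = 0.293). With any 1 BAT library left out, the difference was -0.39 to -0.25 for Fth1 and -0.47 to -0.28 for Ftl1. The skeletal muscle fibre markers Acta1, Ckm and Myh4 summed to 606 to 753 FPKM in the estrus and 14.3 to 3221 in the diestrus BAT libraries. Markers of endothelium (95.3 to 122 FPKM in estrus, 150 to 177 in diestrus), smooth muscle (27.7 to 30.6 and 37.9 to 49.4) and hepatocytes (12.1 to 45.6 and 60.9 to 121) lay apart in the direction of the ferritin chains. Gastric epithelium markers lay apart in the opposite one (6.44 to 20.5 and 3.36 to 5.63), and the part of these cell types was not tested. In hypothalamus the estrus values of Ftl1, 235 to 256 FPKM, lay above those of diestrus, 204 to 223 (0.18 ± 0.05, adjusted p = 0.275), and Fth1 was at 1192 to 1611 and 1125 to 1249 (0.28 ± 0.11, adjusted p = 0.351). In skeletal muscle Ftl1 was at 147 to 180 and 180 to 221 FPKM (-0.28 ± 0.11, adjusted p = 0.207) and Hmox1 at 3.41 to 4.10 and 4.18 to 5.16 (-0.25 ± 0.10, adjusted p = 0.221). In the same muscle libraries the markers of endothelium (36.4 to 50.3 FPKM in estrus, 58.7 to 61.9 in diestrus), smooth muscle (24.2 to 31.7 and 33.7 to 37.4) and cardiomyocytes (152 to 441 and 462 to 605) lay apart in the same direction as Hmox1. Those of muscle fibres lay apart in the opposite one (46152 to 55608 and 42400 to 45897), and the part of these cell types was not tested. Of all genes tested, 20.8% had an unadjusted p under 0.05 in skeletal muscle, 13.2% in hypothalamus and 12.8% in BAT, while 26.2% and 19.6% had their phases apart in skeletal muscle and hypothalamus.

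Hamp did not separate the phases in any tissue where it passed the filter. Its liver means were 1974 FPKM in estrus and 2466 in diestrus with overlapping ranges, and those of Hamp2 were 1018 and 1136. A single fit of all 90 libraries, which lends every tissue the same spread, called 4 pairs that the fits by tissue did not: Cybrd1 (2.48) and Slc11a2 (1.27) in duodenum, Trf in BAT (-1.54) and Tfrc in aorta (-1.88). The share of all genes called by that fit is not given here, and the 0.00108% above belongs to the fits by tissue. Slc11a2 in duodenum (estrus replicate 2, 253 FPKM) and Tfrc in aorta (diestrus replicate 1, 107 FPKM) were each flagged for a single outlying library. Cybrd1 in duodenum and Trf in BAT were not. The part of single libraries in these calls was not tested.

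**Figure D5:**
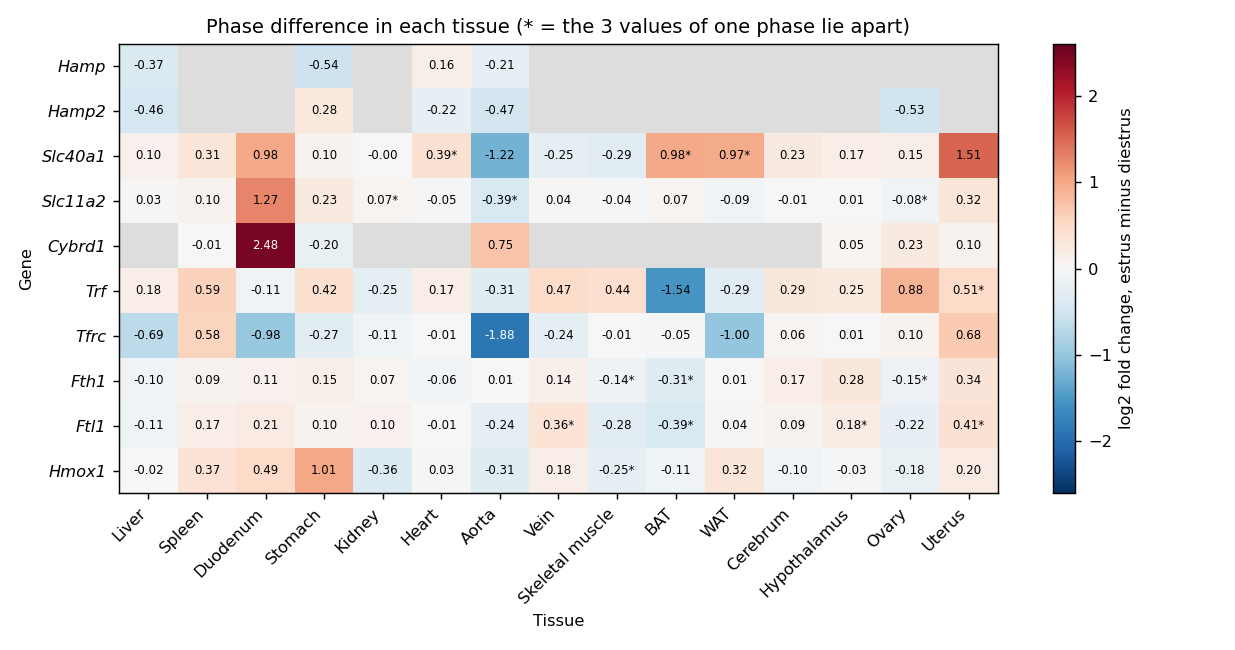
log2 fold change, estrus minus diestrus, of each member (rows) in each tissue (columns), red where estrus is higher and blue where it is lower, with an asterisk where the 3 values of one phase lie apart from the 3 of the other and grey where the gene was under the filter. The largest values, 2.48 for Cybrd1 in duodenum and -1.88 for Tfrc in aorta, carry no asterisk.

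Whether a phase difference varied among tissues was tested with the 14 interaction terms of tissue and phase. An adjusted p of at most 0.05 was reached by 0 of the 10 members, against 3.88% of all genes tested, with the lowest values for Tfrc (0.127), Ftl1 (0.17) and Cybrd1 (0.188). At an unadjusted p under 0.05 there were 3 members, the same ones. Without the 4 libraries that stand apart, Ftl1 passed with an adjusted p of 0.0418. The share of all genes that passed either limit is not given here, so neither is a result about the members.

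For each member the 3 genes with the most similar profile of tissue means were found among 15226 genes, by Pearson r of mean log2(FPKM + 1) over 15 tissues. Hamp2 was closest to Sdr9c7 (r = 0.96) and Fetub (0.95), and Hamp was close to Itih2 (0.89) and Sds (0.88). Slc11a2 was closest to Nat8f5 (0.93) and Tldc2 (0.93), and Cybrd1 to Slc4a7 (0.95) and Me2 (0.95). Ftl1 was closest to Iah1 (0.96), and it was also close to the glutathione peroxidase Gpx1 (0.94), while Fth1 was closest to Fahd1 (0.88). Slc40a1 was closest to Lrat (0.86) and Dpp4 (0.84), Tfrc to Cab39 (0.87), Hmox1 to Lilrb4a (0.87), and Trf to Vnn3 (0.89) and Apoe (0.89). Among members the closest pairs were Hamp with Hamp2 (0.87), Ftl1 with Hmox1 (0.64) and Slc11a2 with Cybrd1 (0.63). These values describe 15 points that share libraries, and no test was made of them.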

How the data were processed

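RNA of 15 tissues from mice in estrus and diestrus, 3 libraries per tissue and phase, was sequenced on a BGISEQ-500. The authors filtered reads with SOAPnuke. Bowtie2 2.2.5, RSEM 1.2.8 and GRCm38.p5 are named in the submitters' processing notes. The authors deposited FPKM per gene and library; counts were not used here, and no column belonged to another sample. Symbols were matched by Entrez identifier to RefSeq (GRCm38.p6), which named 20265 of 20414 genes. The members and lists were chosen with earlier results of these data known.

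Tests used limma 3.58.1 (R 4.3.3) with an intensity trend on log2(FPKM + 1), which understates changes of low genes, with Benjamini-Hochberg adjustment over all genes tested (mean of at least 1 FPKM) and no covariates, by tissue for phases and over 90 libraries for tissues. The study's DEGSeq needs counts. The procedure was run on simulated data with independent noise and a fixed change in genes well measured in every tissue. That run does not show how often smaller changes, or those of genes low in most tissues, would be called. Named were the 10 members, phase differences with an unadjusted p under 0.05, and the 5 list genes with the largest called difference per tissue. By the study, 3 mice per phase gave all tissues. Which library came from which mouse is not given in the sources used here, so tests across tissues treat the 90 libraries as independent. Python 3.11.15, scipy 1.17.1 and matplotlib 3.10.9 served permutation tests and plots. Alternatives covered pseudocount, filter, scale, block and single libraries. One gene among those most alike in pattern is not reported here.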

Additional observations from a re-analysis of the deposited data

Results flagged for a closer look

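In 12 of the 121 groups of 6 libraries tested, the highest or lowest library lay further from the rest than Dixon's limit for groups of this size. For normally distributed values chance gives about 5% of groups. The limit was applied to FPKM without logs and over both phases together, where high values can stand out more easily. The share of all genes flagged is not given, so the count is not a result about the members. Hamp2 in stomach was 171 FPKM in estrus replicate 2 against 85.0 to 102 in the others. Slc40a1 was 281 in uterus estrus replicate 1 against 6.56 to 40.6, and 9.33 in WAT estrus replicate 1 against 1.14 to 3.09. Slc11a2 was 253 in duodenum estrus replicate 2 against 24.5 to 63.9. Tfrc was 107 in aorta diestrus replicate 1 against 3.60 to 22.9. Ftl1 was 276 in cerebrum estrus replicate 3 against 220 to 225. Fth1 was 1887 in heart estrus replicate 2, below the 2093 to 2197 of the others, and 1825 in uterus estrus replicate 3 against 648 to 968. Hmox1 was 33.1 in kidney diestrus replicate 3 against 13.7 to 18.3. Trf was 8221 in liver estrus replicate 3 against 5371 to 6385, and 12.3 in stomach estrus replicate 1 against 3.44 to 5.47. Cybrd1 was 6.13 in ovary estrus replicate 3 against 2.23 to 2.93.

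In 2 members, tissues whose phases lay fully apart did so in opposite directions, and the difference between these tissues was not tested pair by pair. Over all genes 15% of gene and tissue pairs lay apart. The share of all genes with opposite directions is not given, so the count is not a result about the members. For Slc11a2 the log2 fold change of estrus over diestrus was 0.0709 in kidney, -0.39 in aorta and -0.0814 in ovary (limma unadjusted p = 0.417, 0.0524 and 0.388). For Ftl1 it was 0.18 in hypothalamus, 0.41 in uterus, 0.36 in vein and -0.39 in BAT (limma unadjusted p = 0.0087, 0.0782, 0.0892 and 0.0178). The limma test of variation among all 15 tissues gave an adjusted p of 0.286 for Slc11a2 and 0.17 for Ftl1.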

How the results depend on the processing

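Scaling each library to a common median ratio moved most: in liver Slc11a2 went from -0.81 to 0.0114 and Fth1 from -0.03 to 0.87 on the log2 scale. Neighbouring tissues differed in 58 of 140 pairs in place of 25. The share of all genes was taken only without this scaling, so the 58 cannot be set against a background. Scaling also changed the split of called genes in liver from 18.4% to 43% higher, and in spleen from 55.6% to 44.7%. With diestrus libraries alone Fth1 in liver was 0.0405. One fit of all 90 libraries called 4 phase differences in place of 0, with no share of all genes given for that fit. Leaving out the 4 libraries that stand apart, chosen after seeing the data, left 1 member (Ftl1) with a phase difference that varied among tissues. For that setting, too, the share of all genes is not given. Of the other values of single genes, 6 lost and 5 gained their call under an alternative. Leaving out replicates gave 0 to 0 phase calls, 7 to 7 members called in liver, 4 to 6 in spleen, 7 to 8 in duodenum, 21 to 21 neighbours, 0 to 0 interactions and a ferritin ratio difference of 3.58 to 3.67 (exact permutation p = 0.0286). The cause of these changes was not tested.

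With the replicate number as a block, the counts were 0 phase calls, 7 members in liver, 5 in spleen, 8 in duodenum, 25 neighbours and 0 interactions (lowest adjusted p = 0.109), so no call changed. Deviations of same-numbered estrus and diestrus libraries correlated at -0.52 to 0.44, and in 0 tissues were all 3 correlations over 0.1. Libraries of the same number and phase in different tissues, which could share a mouse, correlated at -0.22 to 0.43 with a mean of 0.05 (136 of 630 pairs over 0.1). The mean for different numbers was -0.02, which is no separate comparison, since deviations within a group of 3 cancel. These values do not show whether a number marks the same mouse, and the numbers were not taken to pair the samples.

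Precision is limited by 3 libraries per group and by depth, since read totals per library were not used here. A value of 0 or near it for Hamp, Hamp2 and Cybrd1 says only that it is listed so.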

Other observations

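Lactoferrin (Ltf), an iron-binding protein of secretions, was highest in uterus, where it ranged from 7.96 to 1117 FPKM over 6 libraries, with a mean of 817 ± 457 in estrus and 151 ± 150 in diestrus (SD, n = 3). It was not called between the phases there by limma. Hemopexin (Hpx) in liver ranged from 1978 to 4654 FPKM.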
